A study of Mus musculus with 3 samples.

Results

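CC chemokine receptors were described in inflammation-experienced regulatory T cells of the mouse through 8 genes, Ccr2, Ccr4, Ccr6, Ccr7, Ccr8, Ccr9, Ccr10 and Ccrl2. The genes were picked out by name, from a list of names set with earlier results of these data known. Every gene of the gene tables whose GENCODE M21 name is one of these 8 was taken. This gave 8 of 55536 annotated genes, all 8 among the 22028 protein-coding genes. The series measured polyA-selected messenger RNA in 3 libraries, which form 1 group. Per the labels, the cells were primary cells of a male adult mouse of 16 weeks, and they gave 1 biological replicate of 1 donor, from which technical replicates 1 to 3 were made. The strain name, Foxp3GFP-DTRCD4CreERT2R26tdTomato, carries GFP and the diphtheria toxin receptor at Foxp3, a tamoxifen-activated Cre driven from CD4 and a tdTomato reporter at R26. All 3 libraries share these alleles. No untreated or uninflamed group is among the samples, the sources used here do not say how the inflammation was produced, and a Cre driven from CD4 is not limited to regulatory T cells. Spread and p-values here therefore measure differences between libraries of 1 donor and say nothing of differences between animals.

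CC chemokine receptors are membrane receptors that bind chemokines of the CC family and pass the signal to inhibitory G proteins, which steers the crawling and the adhesion of leukocytes. Which receptors a T cell carries decides which tissue signals it can follow: CCR7 leads to lymph nodes, CCR4 and CCR8 to skin and other barrier tissue, CCR6 to mucosa and CCR9 to the small intestine. In regulatory T cells, CCR7 is typical of resting cells that circulate through lymph nodes, and CCR4, CCR6 and CCR8 are typical of activated cells in tissues. CCRL2 is an atypical member of the family: it binds chemerin and does not signal as the others do.

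The coding sequences show which of the 8 share the family's signalling element. In CC chemokine receptors an aspartate, arginine and tyrosine follow one another at the inner end of the third membrane helix, where the receptor meets its G protein. The 39 bases around these codons are shown for 6 members, 5′ to 3′ on the gene's own strand, from GENCODE M21 transcripts, with mm10 positions. Capitals mark the 3 codons, and for Ccrl2 the codons that stand at that place when its translation is aligned with the other 7.
Ccr7 (chr11:99145615-99145653, minus strand): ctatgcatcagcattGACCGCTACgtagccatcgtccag
Ccr6 (chr17:8256349-8256387, plus strand): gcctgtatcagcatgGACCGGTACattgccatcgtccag
Ccr4 (chr9:114492573-114492611, minus strand): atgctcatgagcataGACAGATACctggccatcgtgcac
Ccrl2 (chr9:111056012-111056050, minus strand): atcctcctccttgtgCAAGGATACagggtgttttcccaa
Ccr9 (chr9:123779666-123779704, plus strand): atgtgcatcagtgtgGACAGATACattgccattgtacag
Ccr10 (chr11:101174271-101174309, minus strand): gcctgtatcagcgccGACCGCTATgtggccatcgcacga
The motif was found in 7 members, and each stretch shown lies within 1 coding exon. At the aligned place Ccrl2 has codons for glutamine, glycine and tyrosine instead, a place on which 6 of the 7 alignments agreed. Over whole coding sequences the 28 pairs of members were identical at 47.6% to 57.5% of alignment positions, gaps included, with a median of 52.1%. Ccr4 and Ccr2 were the most alike pair, and Ccr2 and Ccr10 the least. Coding sequences were 1059 to 1134 bases long. They lay in a single exon in 6 members, in 3 exons in Ccr7 and in 2 in Ccr10.

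At this divergence few reads could be shared between members. Of all 50-base words of the members' transcripts, none was shared in the same sense with another gene for Ccr7, Ccr8, Ccr6, Ccrl2 and Ccr10. The share was 0.465% for Ccr4, 1.91% for Ccr2 and 2.13% for Ccr9. Ccr9 is the one member whose exons overlap those of other genes, over 19% of its exon bases on the opposite strand and over 269 bases on its own. The overlapping genes, AC165425.1, Gm17200 and Slc6a20a, had at most 0.8 TPM in any library. The sources used here do not say whether strand was used in counting, so reads in the overlap cannot be assigned to one strand.

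Depth was 20942875, 18402479 and 17494966 expected counts in annotated genes for libraries 1, 2 and 3. The labelled cell type was checked on marker genes. All 6 T cell markers were detected, and their summed level was 7779, 7487 and 8658 TPM (the share of transcripts, scaled for their length and for depth). All 6 regulatory T cell markers were detected too, Foxp3 at 77.6, 86.2 and 59.2 TPM, with a sum of 2760, 2229 and 2314 TPM. The sums were far lower for markers of other cells: 67.5 to 78.3 TPM for B cells, 47.0 to 70.4 for monocytes and macrophages, 16.7 to 22.3 for CD8 T cells, 16.4 to 19.5 for NK cells, 9.91 to 16.5 for plasma cells, 9.08 to 10.4 for gamma-delta T cells, 2.09 to 2.95 for dendritic cells and 0 to 2.60 for neutrophils. The lists hold different genes, so the sums do not measure the share of each cell type. The B cell sum was near the level of Foxp3 alone. Igha, the IgA heavy chain gene, is not in the plasma cell list and had 3.77, 92.8 and 1.62 TPM. The libraries did not differ by counting noise alone. After edgeR's TMM scaling, 9371 of 14877 tested genes (63.0%) differed between the 3 libraries by a Pearson chi-square test with a Benjamini-Hochberg adjusted p under 0.05. Genes that differed and were lowest in library 3 made 30.9% of the tested genes, against 16.1% for library 1 and 16.1% for library 2. Its log2 deviation from the gene mean had a Spearman correlation of -0.53 with local GC content over 9305 protein-coding genes, against 0.40 for library 1 and 0.51 for library 2. These are descriptions across genes that share the same 3 libraries. Local GC content, taken from the transcript's most GC-rich window of 200 bases, is given beside the receptor results below.

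Ccr7 was the highest of the 8 genes by far, followed by Ccr8, Ccr6, Ccr4 and Ccr2, with Ccrl2, Ccr9 and Ccr10 at the low end. The 8 genes summed to 566, 609 and 650 TPM in libraries 1, 2 and 3. Ccr7 alone made 57.7%, 68.9% and 73.5% of that sum, or 66.7% ± 8.11 (SD, n = 3 libraries). All 8 were at or above 1 TPM in every library, and all 8 passed the filter of a mean count of 10. As the names were set with earlier results of these data known, this is no finding about the family. In bulk RNA, fewer cells with a receptor and less RNA per cell cannot be told apart.

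**Figure D1:**
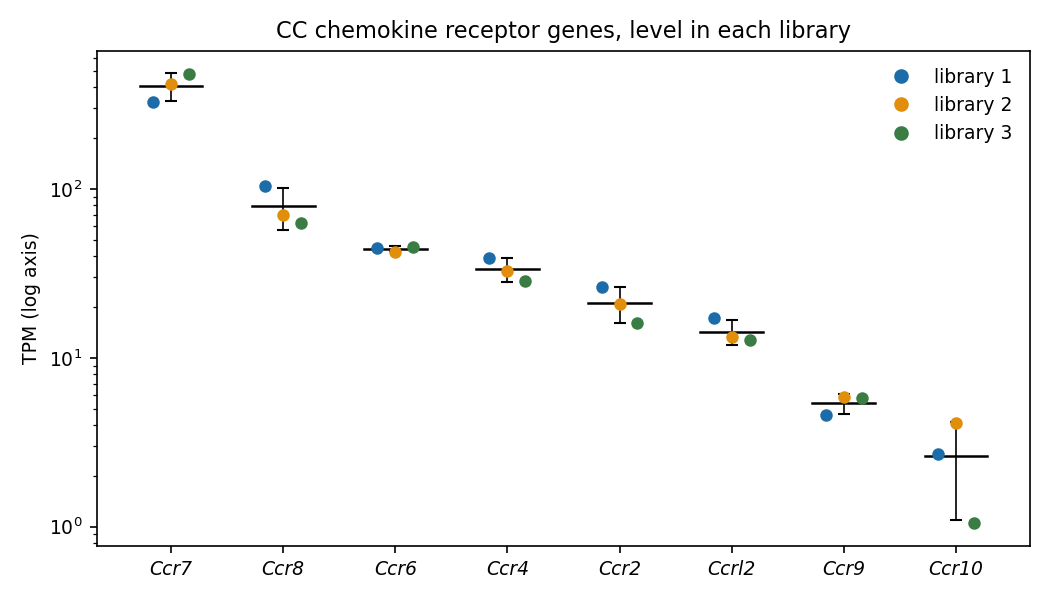
Level of each CC chemokine receptor gene in TPM (log axis), with 1 point for each library, a line at the mean and a bar of 1 SD over the 3 libraries. Ccr7 stands between 327 and 478 TPM, above every other member in every library, and the points of Ccr10 are the most spread, from 1.05 to 4.13 TPM.

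Ccr7 (ENSMUSG00000037944.8, chr11:99144196-99155077, minus strand) encodes the receptor for the lymph node chemokines CCL19 and CCL21. It had 327 TPM in library 1, 420 in library 2 and 478 in library 3, from 8205, 9701 and 11025 expected counts. Its mean of 408 ± 76.2 TPM placed it 304th of the protein-coding genes. Library 1 was the low one and library 3 the high one, and the TMM-scaled counts differed by 1.48 times between them (chi-square adjusted p = 2.6e-159). Its local GC content was 64.0%, close to the median of 65.0% over tested protein-coding genes, and the spread was 1.47 times after the GC trend was removed. The ratio was 1.23 times in a second gene table that the authors deposited.

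Ccr8 (ENSMUSG00000042262.5, chr9:120092114-120094906, plus strand) encodes the receptor for CCL1, found on activated regulatory T cells of barrier tissue. Its levels were 104, 70.0 and 62.8 TPM in libraries 1, 2 and 3, with 1532, 944 and 846 expected counts. Library 1 stood clearly above the other libraries, the reverse of Ccr7. The highest and lowest TMM-scaled counts differed by 1.65 times (adjusted p = 7.6e-36), by 1.73 times after GC removal and by 1.35 times in the second table. As a result, the Ccr7 level exceeded the Ccr8 level by 3.13-fold in library 1, by 6-fold in library 2 and by 7.61-fold in library 3 on the TPM scale. The order held in each library, but the size of the gap was not stable between libraries of the same donor.

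Ccr6 (ENSMUSG00000040899.14, chr17:8236043-8257141, plus strand) encodes the receptor for CCL20 at mucosal surfaces. It had 45.0, 42.5 and 45.4 TPM, from 732, 645 and 683 expected counts, a mean of 44.3 ± 1.57 TPM. It was the steadiest member: the TMM-scaled counts differed by 1.05 times, and the chi-square test did not separate the libraries (adjusted p = 0.75, and 0.083 to 0.96 over the 9 alternative settings). Which library was its highest and lowest varied with the setting.

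Ccr4 (ENSMUSG00000047898.7, chr9:114490316-114504916, minus strand) encodes the receptor for CCL17 and CCL22, which dendritic cells and skin supply. Its levels were 39.2, 32.8 and 28.6 TPM, with 1042, 795 and 682 expected counts. Library 1 was high and library 3 low, 1.39 times apart in TMM-scaled counts (adjusted p = 4.4e-10) and 1.46 times after GC removal.

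Ccr2 (ENSMUSG00000049103.14, chr9:124101950-124113557, plus strand) encodes the receptor for CCL2 and related inflammatory chemokines, and is also the hallmark receptor of inflammatory monocytes. It had 26.3, 20.9 and 16.1 TPM from 1088, 830 and 625 expected counts. Library 1 was again the highest and library 3 the lowest, 1.58 times apart (adjusted p = 1.7e-18). Its local GC content of 48.0% was the lowest of the 8, and removing the GC trend left a spread of 1.75 times. Of the 6 monocyte and macrophage markers, 4 were detected and none was at 0 in all libraries. Their sum was 47, 57.9 and 70.4 TPM, the reverse order of Ccr2. Ly6c2 (11.3, 22.2 and 44.4 TPM) and Cd14 (0.58, 1.59 and 1.73 TPM) were also lowest in library 1 and highest in library 3. Csf1r had 15.7, 14.9 and 12 TPM and Lyz2 14.8, 15 and 7.45 TPM, both lowest in library 3 like Ccr2. The part of such cells in the Ccr2 level was not tested.

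Ccrl2 (ENSMUSG00000043953.12, chr9:111054486-111057519, minus strand), the gene of the atypical chemerin-binding receptor, had 17.1, 13.2 and 12.7 TPM from 390, 276 and 291 expected counts. Library 1 was above the other libraries, which lay close together, and the TMM-scaled counts spanned 1.27 times (adjusted p = 0.0067). This call was lost in the second table (adjusted p = 0.53), where library 3 was the highest, and without library 1 (adjusted p = 0.71); over the 9 alternatives the adjusted p ran from 0.0028 to 0.71.

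Ccr9 (ENSMUSG00000029530.16, chr9:123678439-123784330, plus strand) encodes the receptor for CCL25 of the small intestine and thymus. It had 4.57, 5.86 and 5.79 TPM from 198, 217 and 230 expected counts, with library 1 below the other libraries. The spread of 1.28 times only just passed the test (adjusted p = 0.048), and it passed in 3 of 9 alternative settings (adjusted p from 0.0046 to 0.71). The call thus depends on the setting.

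Ccr10 (ENSMUSG00000044052.3, chr11:101172997-101175443, minus strand) encodes the receptor for the skin and mucosal chemokines CCL27 and CCL28. It had 2.70, 4.13 and 1.05 TPM, from only 59, 83 and 21 expected counts. Library 2 was the highest and library 3 the lowest, and the TMM-scaled counts differed by 4.00 times (adjusted p = 2.6e-08), the widest spread of the 8. Its local GC content, 69.5%, was the highest of the 8, and the spread was 3.04 times after the GC trend was removed and 4.86 times in the second table. The gene lies inside Cntnap1 (chr11:101170523-101190724), which is on the plus strand, shares no exon bases with Ccr10 and had 0.13, 0.03 and 0.15 TPM. Plasma cells that make IgA are known to carry CCR10. Of the 4 plasma cell markers 1 was detected, none was at 0 in all libraries, and their sum was 9.91, 16.5 and 13.7 TPM; Jchain, the chain that joins IgA, had 9.54, 15 and 10.5 TPM, highest in library 2 like Ccr10. Mzb1, a gene of antibody secretion, had 0, 1.16 and 3.03 TPM, highest in library 3, where Ccr10 was lowest. Igha, the IgA heavy chain gene, was looked up after these values were seen and had 3.77, 92.8 and 1.62 TPM, also highest in library 2 and lowest in library 3. The part of plasma cells in the Ccr10 level was not tested.

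Ordered by level, 26 of the 28 pairs of members could be told apart, meaning that the log2 ratio of TPM + 1 had the same sign in all 3 libraries and a mean above 2 SD. Among neighbours in that order, Ccr7 exceeded Ccr8 by 2.37 ± 0.66, Ccr8 exceeded Ccr6 by 0.79 ± 0.37, Ccr4 exceeded Ccr2 by 0.66 ± 0.12, Ccr2 exceeded Ccrl2 by 0.51 ± 0.17 and Ccrl2 exceeded Ccr9 by 1.25 ± 0.39 on this log2 scale (SD over 3 libraries). The pairs that were not told apart were Ccr6 and Ccr4, at 0.40 ± 0.23, and Ccr9 and Ccr10, at 0.91 ± 0.71. Ccr6 and Ccr4 met the rule at 0.51 without library 1 and at 0.28 without library 3, and Ccr9 and Ccr10 did so at 0.50 without library 3. Ccr8 and Ccr6 no longer met it without library 2, at 0.83 ± 0.52. On counts without scaling for length, Ccr4 and Ccr2 were at 0.00 ± 0.11, Ccrl2 and Ccr9 at 0.52 ± 0.34 and Ccr8 and Ccr6 at 0.63 ± 0.38, and in the second table Ccr2 and Ccrl2 were at 0.14 ± 0.36, so these calls were lost there.

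Between libraries, 7 of the 8 members differed past the threshold, beside 63.0% of all tested genes and 76.5% of the 9995 genes that averaged 100 counts or more, a depth that 7 members reached. With 8 genes this count says nothing particular about the receptors. Under the alternatives 6 of 8 passed with DESeq2 size factors (64.1% of all tested genes), 7 with total counts alone (67.7%), 7 with a filter of 50 counts (73.7%), 6 with no filter (29.4%), 5 in the second table (56.6%) and 6 with the GC trend removed (58.7%). Leaving out library 1, 2 or 3 gave 5, 7 and 6 of 8, beside 50.6%, 52.7% and 30.5%. The members' median spread, highest over lowest library, was 1.43 times, against 1.38 over all tested genes and 1.27 over those of at least 100 counts. Ccr8, Ccr4, Ccr2 and Ccrl2 were highest in library 1; genes that passed and were highest there made 23.8% of all tested genes. Ccr7 and Ccr9 were highest in library 3 (21.7% of tested genes) and Ccr10 in library 2 (17.5%). DESeq2 size factors gave the same highest and lowest library as TMM for each of the 8. With total counts alone the lowest library changed for Ccr6 only; the TMM factors were 0.964, 0.987 and 1.051. With the GC trend removed, the highest or lowest library changed for Ccr6, Ccrl2 and Ccr9.

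**Figure D2:**
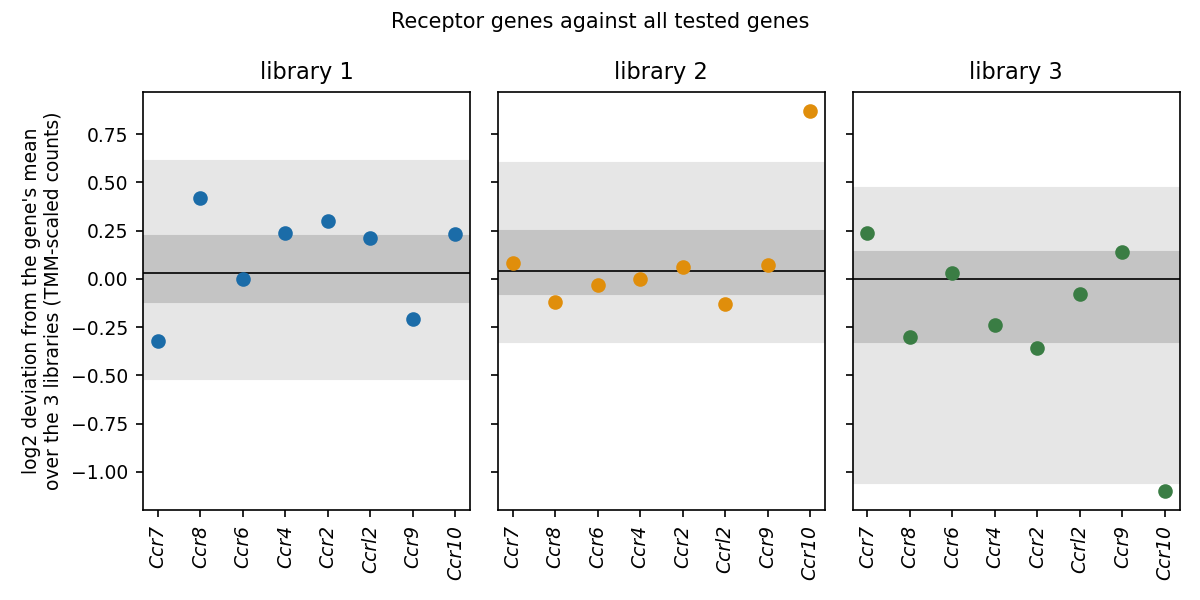
Log2 deviation of each member from its own mean over the 3 libraries (TMM-scaled counts), in 1 panel for each library. The line is the median over 14877 tested genes, the dark band holds the middle of them from the 25th to the 75th percentile and the light band the 5th to the 95th. Ccr7 lies at -0.32 in library 1 and 0.24 in library 3, Ccr8 at 0.42 and -0.30, and Ccr10 leaves the light band in library 2 at 0.87 and in library 3 at -1.10.

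The members' deviations fell mostly inside the range of other genes, as the plot of log2 deviations shows. In library 1, Ccr8 (0.42), Ccr2 (0.30), Ccr4 (0.24) and Ccr10 (0.23) lay above the upper quartile of all tested genes (0.22), and Ccr7 (-0.32) and Ccr9 (-0.21) lay below the lower quartile (-0.12). In library 2, Ccr8 (-0.12) and Ccrl2 (-0.13) lay below the lower quartile (-0.08). In library 3, Ccr2 at -0.36 was below the lower quartile of -0.33, and Ccr7 at 0.24 was above the upper quartile of 0.14. Ccr10 alone passed the 5th or 95th percentile, in libraries 2 and 3.

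Transcript estimates showed where reads of a gene fell, although short reads place them between overlapping transcripts only by a model. Ccr7, Ccr8 and Ccr10 have 1 annotated transcript each. Ccr6 has 9, of which 7 encode the same 1101 coding bases and differ in the exons before them. Grouped by where they begin on chromosome 17, 2 start upstream between 8236043 and 8236212, 1 starts in the middle at 8242526 and 6 start downstream between 8243811 and 8245065. The upstream starts held 50.2%, 59.8% and 24.3% of the gene's expected counts in libraries 1, 2 and 3. The middle start held 26.5%, 27.2% and 36.5%, and the downstream starts held 23.3%, 13.0% and 39.2%. So Ccr6, the member with the steadiest total, was divided differently in library 3 from the other libraries. Among the downstream starts, Ccr6-204, which begins at 8243814, had 26.8, 0 and 235.0 expected counts. Ccr6-205, which begins at 8243811, went the other way, with 119.1, 63.6 and 0. The downstream starts together had 170.5, 84.1 and 267.8, so the rise of Ccr6-204 overstates the shift between starts. No test was made on these modelled shares.

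The sequence before the first upstream start and before the middle start of Ccr6 is shown, with that of Ccr8, the second highest member, for comparison. The upstream window ends at the start of Ccr6-207, which had 27.5, 24.1 and 19.2 expected counts. Most upstream counts, and their fall in library 3, lay in Ccr6-202 (340.3, 361.4 and 147.0), which begins at 8236212. The bases directly before that start are not shown. Each is the 250 bases before a RefSeq transcript start, 5′ to 3′ on the gene's strand, on GRCm38.p6, the assembly that mm10 names. Capitals mark a match to AGATAA, the core bound by GATA factors, on either strand.
Ccr6, upstream start (chr17:8235793-8236042, plus strand): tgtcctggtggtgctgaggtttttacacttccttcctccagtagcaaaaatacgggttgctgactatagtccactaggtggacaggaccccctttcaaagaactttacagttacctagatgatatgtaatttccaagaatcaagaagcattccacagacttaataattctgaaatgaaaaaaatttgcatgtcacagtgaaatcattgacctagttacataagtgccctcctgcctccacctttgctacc
Ccr6, middle start (chr17:8242276-8242525, plus strand): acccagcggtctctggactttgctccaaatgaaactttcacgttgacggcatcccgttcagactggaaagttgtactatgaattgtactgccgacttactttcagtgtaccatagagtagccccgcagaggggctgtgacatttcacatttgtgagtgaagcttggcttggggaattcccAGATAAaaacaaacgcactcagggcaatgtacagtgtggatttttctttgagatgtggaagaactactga
Ccr8 (chr9:120091883-120092132, plus strand): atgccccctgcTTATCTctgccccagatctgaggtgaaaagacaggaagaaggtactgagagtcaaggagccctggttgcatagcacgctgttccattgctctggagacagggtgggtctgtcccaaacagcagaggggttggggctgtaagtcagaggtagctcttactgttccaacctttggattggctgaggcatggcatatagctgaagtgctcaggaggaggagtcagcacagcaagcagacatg
Of the 8 members, 6 were matched to promoter entries in RefSeq. Besides AGATAA, the letters searched on both strands were TGANTCA of AP-1 factors, TATAAA of the basal promoter, TGTTTAC of forkhead factors, TGTGGT of RUNX factors and GGGCGG of Sp1. AGATAA stood in at least 1 window of Ccr2, Ccr6, Ccr8 and Ccrl2, that is 4 of 6 members, some with several windows. By windows it was in 5 of 9, of which 2 are overlapping windows of Ccrl2 that share 1 match. Of 32851 single promoters of the same length, 9.99% hold it. GC content was 37.2% in the window of Ccr2, 41.2% and 46% in those of Ccr6, 53.6% in Ccr8 and 50.8% to 54% in Ccrl2. The median over all promoters was 52.4%, and the part of GC content in the matches was not tested. The place of AGATAA was 239 bases before the start in Ccr8 and 70 before the middle start of Ccr6. The upstream window of Ccr6 held none of the 6. That window does not reach the bases directly before the start of Ccr6-202, which were not searched. TGAGTCA stood 143 bases before the start of Ccr4, and TGANTCA is in 6.75% of promoters. GGGCGG was in 1 window of Ccrl2 and is in 32.7% of promoters. No window of the 6 members held the basal, the forkhead or the RUNX letters, which are in 12.4%, 3.17% and 14% of promoters. No window held more than 1 match. A match of letters is a description and shows no binding.

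The other members with several transcripts differed in how steady their division was. Ccr4 was divided alike in each library, with Ccr4-201 at 67.3%, 66.2% and 64.3% of its expected counts and Ccr4-202 holding the rest. All 4 transcripts of Ccr2 encode the same 1119 coding bases. Ccr2-202 held 51.9%, 72.0% and 34.6% of the counts and Ccr2-201 held 29.9%, 14.3% and 46.3%, so library 2 and library 3 stood at opposite ends. Ccrl2-203 was the main transcript of its gene in every library, at 59.5%, 63.4% and 74.3%. Ccr9-201 held 31.7%, 55.6% and 50.9%, and Ccr9-206, which keeps an intron and has no annotated coding sequence, held 13.1%, 10.5% and 21.3%, on only 26.0, 22.8 and 49.0 expected counts.

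**Figure D3:**
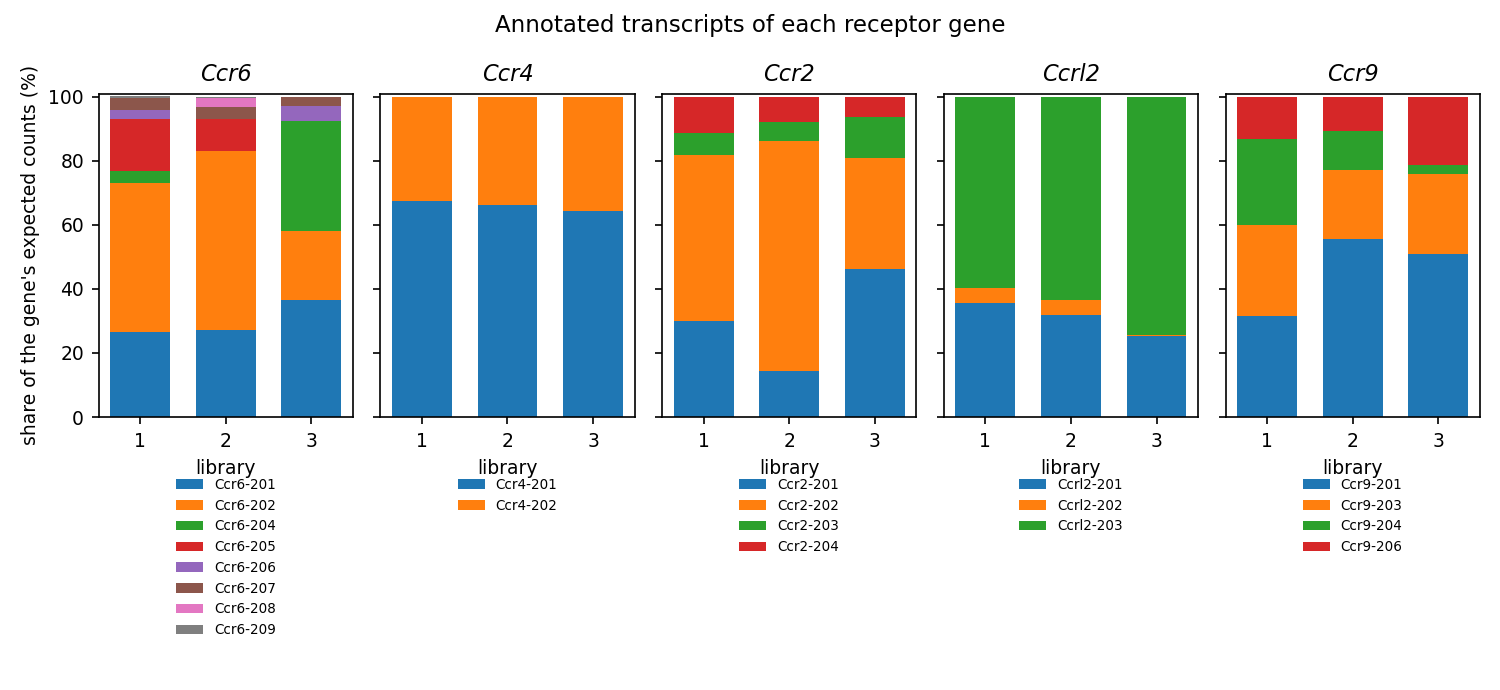
Share of each gene's expected counts given to its annotated transcripts, in percent, with 1 stacked bar for each library and transcripts at 0 in all libraries left out. Ccr4 is divided alike in the 3 libraries, whereas Ccr6-204 takes 34.4% of Ccr6 in library 3 against 3.66% and 0% in libraries 1 and 2. Ccr6-205 goes the other way, at 0% in library 3 against 16.3% and 9.85% in libraries 1 and 2.

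The authors deposited a second gene table of whole-number counts for the same libraries, with fewer counts in all, and the members lost unequal shares in it. Over 9317 genes of at least 100 expected counts the median gene had 45.4% of its expected counts in the second table. Ccr8 (75%), Ccr6 (73.1%), Ccr10 (69.9%) and Ccrl2 (66.9%) kept the most and Ccr4 kept 49.4%. Ccr9 (33.6%), Ccr2 (28.5%) and Ccr7 (20.6%) kept the least. Genes with many counts per base kept little in general: the median was 15.2% for the 623 genes above 3 expected counts per base, where Ccr7 lies at 5, and 40.2% to 50.8% in each class below. In this table Ccr7 exceeded Ccr8 by 1.79-fold, 2.72-fold and 2.96-fold in libraries 1, 2 and 3, compared with 5.36-fold, 10.3-fold and 13.0-fold in the expected counts of the first table; both sets are counts without scaling for length. Ccr7 was thus the higher gene in either table, but the size of its lead depends on the table. Why the tables differ was not tested.

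**Figure D4:**
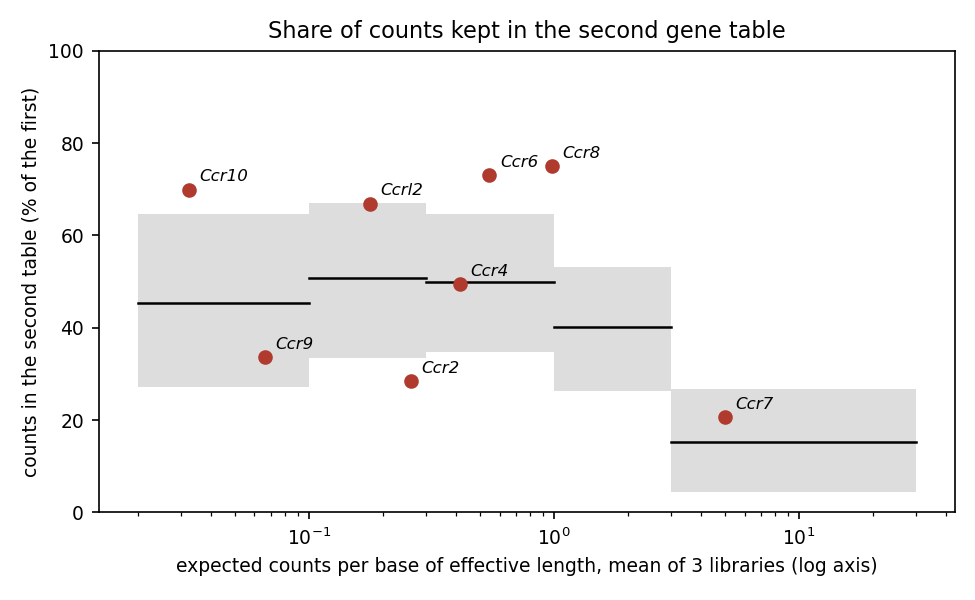
Counts in the second gene table in percent of the expected counts in the first, against expected counts per base of effective length (log axis), with the 8 members as points. Lines and grey bands are the median and the 25th to 75th percentile over genes of at least 100 expected counts in each class. Ccr7 lies at 20.6% in the class of most counts per base, inside its band. Ccr8, Ccr6 and Ccr10 lie above their class's band, and Ccr2 lies below its own.

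The genes around the receptors were read from lists of the pathway. Ligands were mostly low: of 17 genes for CC chemokines and chemerin, 5 reached 1 TPM in each library, and the median was 0.24 TPM. Ccl5, a ligand of inflammatory CC receptors, had 122, 141 and 155 TPM, and Ccl25, the ligand of CCR9, had 12.8, 15.9 and 17.6 TPM. Ccl1, the ligand of CCR8, had 4.62, 7.43 and 9.68 TPM, so the Ccr8 ligand was lowest in library 1, where Ccr8 was highest. Ccl27a, a ligand of CCR10, had 5.60, 6.06 and 6.43 TPM. Of 6 ligand genes with enough counts to test, 3 differed between libraries, beside 63% of all tested genes. These were Ccl5 (chi-square adjusted p = 6.9e-06), Ccl25 (3.6e-04) and Ccl1 (0.0065), each highest in library 3. The ligands of CCR7 and of CCR4 were near the limit of detection: Ccl19 had 0, 0.14 and 0.14 TPM, Ccl17 0.17, 0.36 and 0.18, and Ccl22 0, 0.19 and 0.04. Ccl21a, Ccl7 and Ccl8 had 0 counts in all libraries, which allows at most 0.305, 0.333 and 0.543 TPM in a library when 3 counts are taken as the limit, for counting error only.

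Receptors of the same ligands outside the 8 were low. Of 5 such genes, Ccr3, the eotaxin receptor, alone reached 1 TPM in every library, at 3.79, 3.21 and 2.54 TPM (adjusted p = 0.017). Ackr4, which scavenges the CCR7 ligands, had a mean of 0.93 ± 0.17 TPM, Ccr1 0.34 ± 0.14, Ackr2 0.23 ± 0.21 and the chemerin receptor gene Cmklr1 0.01 ± 0.02.

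The machinery that acts after a receptor was abundant. All 16 genes of G protein signalling and motility were detected, with a median of 105 TPM, led by Rac2 (2657 ± 135 TPM), Dock2 (558 ± 27.4), Rassf5 (423 ± 28.1) and Rap1a (238 ± 9.40), which encode GTPases and their partners that drive actin and integrins. All 16 differed between libraries, beside 63% of all tested genes and 76.5% of those with at least 100 counts. Of the 16, 5 were highest in library 1, 5 in library 2 and 6 in library 3. Genes that differed and were highest there made 23.8%, 17.5% and 21.7% of all tested genes. These 4 leading genes spanned only 1.06 to 1.11 times in TMM-scaled counts and were lowest in library 2. The G protein genes Gnai2 and Gnb2, chosen later for their spread, were lowest in library 3. Gnai2 had 268, 260 and 71 TPM (3.77 times apart in scaled counts) and Gnb2 168, 169 and 49.6 TPM (3.17 times). Of 14 genes of desensitisation, which switch receptors off, 12 were detected and 11 of 13 tested differed, beside the same 63% and 76.5%. The highest were Rgs1 (317 ± 26.5 TPM), Rgs10 (255 ± 23.2), Rgs19 (191 ± 6.12) and Arrb2 (151 ± 27.1), the first 3 encoding regulators that shorten G protein signals and the last a beta-arrestin. Grk3 and Rgs18 were under 1 TPM in each library.

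All 9 homing partners, the adhesion molecules and the egress receptor that act beside chemokine receptors, were detected and differed between libraries. Selplg, of selectin-mediated rolling, had a mean of 761 ± 49.6 TPM, and the integrin genes Itgb7 and Itgb2 had 679 ± 205 and 519 ± 39.2 TPM. Itgb7, part of a gut-homing integrin, had 803 TPM in library 1, 791 in library 2 and 442 in library 3, an order that Ccr9 did not share. Of 9 transcription factors known to act on one or more of the receptor genes, 8 differed between libraries. Batf had 254, 204 and 220 TPM, Gata3 122, 108 and 43.3, Rora 50.4, 43.2 and 21, and Rara 37.3, 37.8 and 17. Gata3 and Rora were highest in library 1 and lowest in library 3, as Ccr8, Ccr4 and Ccr2 were; with 3 technical libraries no relation was tested. Over the 6 pathway lists 48 of 56 tested genes differed, beside the 63.0% of all tested genes and 76.5% of those with at least 100 counts.

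**Figure D5:**
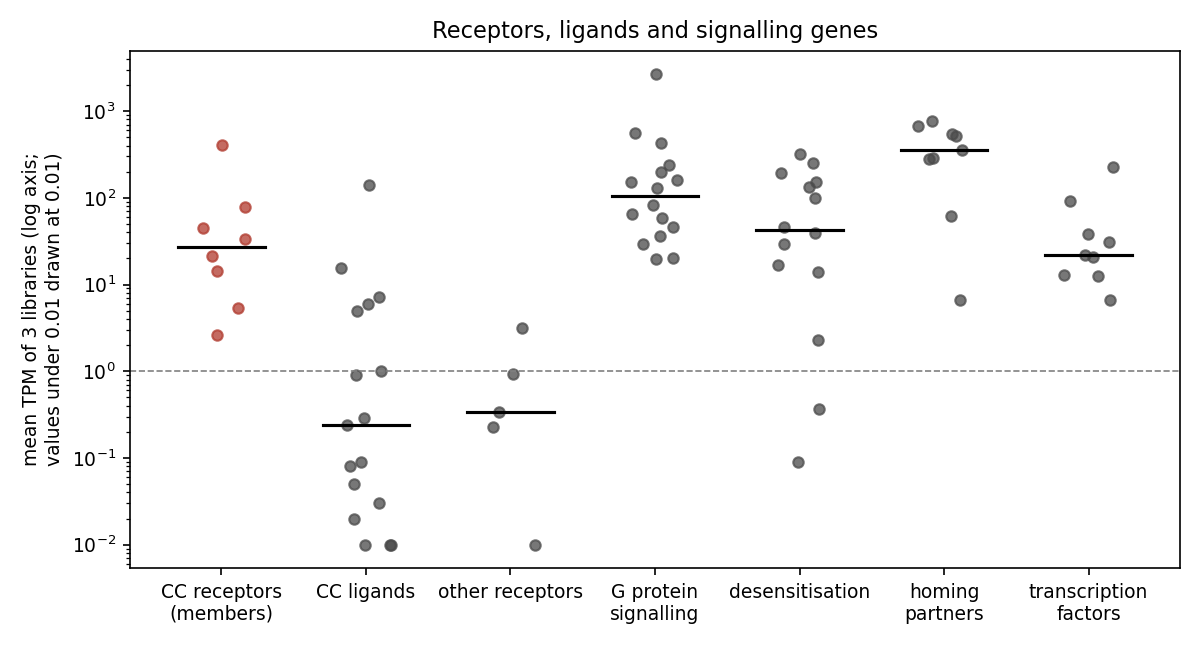
Mean level over 3 libraries in TPM (log axis) of the 8 receptor genes and of each gene in 6 pathway lists, with a line at each list's median and a dashed line at 1 TPM. The receptors run from 2.63 to 408 TPM, most ligands lie under 1 TPM, and the signalling, desensitisation and homing lists hold the highest genes, up to 2657 TPM for Rac2.

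Markers of other cells that can carry these receptors were set beside Ccr6 and Ccr7. B cells are known to carry CCR6 and CCR7. Of 5 B cell markers 4 were detected, none was at 0 in all libraries, and their sum was 67.5, 72.7 and 78.3 TPM, lowest in library 1 and highest in library 3 as Ccr7 was. Cd79b, the highest of these markers, had 46, 44.7 and 44.6 TPM and did not follow Ccr7, whereas Cd79a had 13.1, 18.4 and 22.1 TPM, in the order of Ccr7. The part of B cells in the Ccr7 and Ccr6 levels was not tested.

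Genes whose level pattern was nearest to that of the 3 highest members were found among protein-coding genes by the Euclidean distance of log2(TPM + 1) over the 3 libraries. Nearest to Ccr7 were Rpl35 (330, 401 and 453 TPM; distance 0.102), a ribosomal protein gene, and Hcst (334, 397 and 445 TPM; 0.133), which encodes a signalling adaptor of lymphocytes. Nearest to Ccr8 were Gbp10 (90.9, 71.0 and 64.7 TPM; 0.204), an interferon-induced GTPase gene, and Sacm1l (95.1, 74.6 and 69.2 TPM; 0.212), a lipid phosphatase gene. Nearest to Ccr6 were Gfm2 (45.1, 42.0 and 45.3 TPM; 0.0164) and Hmces (44.9, 42.8 and 46.1 TPM; 0.0242), genes of mitochondrial translation and of DNA repair. With 3 libraries the measure describes levels only.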

How the data were processed

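PolyA-selected RNA of 1 donor was sequenced in 3 libraries (technical replicates, 1 group). For each, the authors deposited expected counts, TPM and FPKM for genes and for transcripts, and the percent that each transcript holds of its gene, per the file headers, whose column names are those RSEM writes. A second deposited gene table holds whole-number counts. The assembly is mm10, with GENCODE M21 for the first table and M4 for the second, per the deposited text beside the files. For aligner, counter and counting rule, the sources used here give no name.

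Expected counts were rounded, and genes averaging 10 counts or more were tested for differences between libraries by Pearson's chi-square against counting noise (2 degrees of freedom), with edgeR 4.0.16 TMM sizes in R 4.3.3 and Benjamini-Hochberg adjustment over all tested genes. The script was tested on simulated data. Entries for tRNA and spike-in sequences, 0.231% to 0.291% of expected counts, were left out. Detected means at least 1 TPM in each library. Ccl19 and Ccl21a have 2 gene models each, and the higher was used. Reads carry no stated molecular identifiers, so counting limits cover counting error only. Members and lists were chosen with earlier results of these data known. Named genes were all 8 members, the 4 highest of each pathway list and the low ones where 4 or fewer, markers, and the 2 genes nearest to each of the 3 highest members. The low ligand genes Ccl19, Ccl17, Ccl22, Ccl21a, Ccl7 and Ccl8 were named outside this rule, and not all low ligands are named. Others are named as chosen later. A few of these genes, and some sequences, are not reported here. Local GC trends were removed by lowess (fraction 0.3, genes of at least 100 counts). Alternatives were DESeq2 1.42.0 size factors, total counts, a filter of 50 counts and no filter, the other gene table, GC removal, a pseudocount of 0.1 in place of 1, FPKM, counts without length scaling, TPM over nuclear protein-coding genes, and leaving out each library.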

Additional observations from a re-analysis of the deposited data

How the results depend on the processing

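No paired analysis was possible because the series holds 1 group. Of the 8 receptor genes, 5 to 7 differed between libraries under the 9 alternatives (5 to 7 when 1 library was left out), and Ccr7, Ccr8, Ccr4, Ccr2 and Ccr10 passed in each of the 9. Over all genes 9371 differed, against 6207 in the second gene table, which has fewer counts and fewer genes tested (10964), and 4531 to 7845 when 1 library was left out, the lowest without library 3. Of the pathway genes 48 differed, against 31 to 41 when 1 library was left out, again lowest without library 3. TPM over nuclear protein-coding genes gave higher mean levels: 499 for Ccr7, 54.1 for Ccr6, 40.8 for Ccr4, 17.4 for Ccrl2 and 6.61 for Ccr9, by the construction of the smaller denominator. The number of pairs told apart, 26, was 23 to 28 under the alternatives. Without scaling for length, the order of Ccr6 and Ccr2 turned, from a log2 ratio of 1.06 to -0.26 ± 0.35. The counts behind a gene set its counting error: Ccr10 had 21 to 83 counts in a library and Ccr9 198 to 230.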
